A study of Mus musculus with 8 samples.

Results

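Glutathione transferases (GSTs), the enzymes that couple glutathione to reactive compounds, and genes linked to the transcription factor NRF2 were described in BMEL cells with and without ectopic GRHL2. BMEL is a line of bipotential cells from embryonic mouse liver, and GRHL2 is a transcription factor of epithelial cells. The genes were chosen by symbol and not by their values, although earlier results of these data were known. They comprised every table entry named as an alpha, mu, pi, theta, kappa, omega, zeta or microsomal GST (23 genes), plus 24 named genes, all of which were present: NRF2 (Nfe2l2), its inhibitor KEAP1 and genes of glutathione, thioredoxin, NADPH, heme, iron and peroxide metabolism. This gave 47 of the 18671 genes measured.

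RNA-seq was performed 48 h after transfection on 8 samples, 4 given the GRHL2 plasmid and 4 given pcDNA3 as control, numbered 1 to 4 in each group and described as independent biological replicates. All were BMEL cells in the same medium with serum, insulin, EGF and IGFII on collagen. The GRHL2 plasmid expresses Flag-tagged human GRHL2 from an EEF1A1 promoter and also a green fluorescent protein, so the groups differed by more than GRHL2. The level of a gene is given here as the deposited log2 value, read here as the regularized logarithm (rlog) of its reads less the log2 of its transcript length, since the methods name an rlog divided by length. A difference between groups is GRHL2 less control on that scale. The rlog pulls the differences of genes with few reads towards 0, and the depth of each sample is unknown.

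NRF2 is held in the cytosol by KEAP1, an adaptor of the CUL3 ubiquitin ligase that sends it to degradation. Oxidants and electrophiles modify KEAP1, NRF2 then accumulates, and with a small MAF partner it binds antioxidant response elements (AREs) near genes for conjugation, glutathione synthesis, thioredoxin recycling and NADPH supply. In the liver these genes serve the clearance of drugs, heme and peroxides, and the proportions of GST classes differ between hepatocytes and biliary cells.

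Under the mouse symbol Grhl2 the control samples had levels of 4.68, 4.57, 4.42 and 4.44, and the GRHL2 samples 6.30, 6.96, 5.65 and 6.05. The groups did not overlap, and the difference was 1.71 (SE 0.22, adjusted p = 0.0010 with limma, exact two-sided permutation p = 0.0286 with n = 4 per group, the smallest that 4 against 4 samples allow). How much of this signal came from the human cDNA is unknown. As these are bulk samples, fewer cells with a transcript and less of it per cell cannot be told apart, and the share of cells transfected was not analysed here. The 12 genes chosen as defining BMEL cells, among them the keratins Krt8, Krt18 and Krt19 and the liver factors Hnf4a and Foxa2, were all present, with a summed level of 16.65 to 16.83 in control and 16.83 to 16.97 in GRHL2 samples. Of these 12, Epcam (1.75, adjusted p = 4.59e-07) and Cdh1 (0.29, adjusted p = 0.0199) rose and Afp fell (-0.21, adjusted p = 0.0124, limma for all 3). A fit with the replicate number as a block, described below, also called Krt19 and Sox9 higher. Summed levels of the hepatocyte list, of which 6 of 8 genes were measured, were 5.97 to 6.32 in control and 6.0 to 6.34 in GRHL2 samples, with Tat at 0.22 in control. For the 6 cholangiocyte markers they were 13.90 to 14.25 and 14.27 to 14.57, without overlap, although Krt7 alone of the 6 passed the test (0.44, adjusted p = 0.00201, limma), and 5 of the 6, all but Cftr, were called higher with the block, against 18.2% of all genes. The blood and immune list (4 of 6 measured) also separated, at 6.56 to 6.74 in control and 6.75 to 6.82 in GRHL2 samples, with none of its genes called without the block, Cd68 called higher with it (0.16, adjusted p = 0.0205, limma), and control levels from 0.90 for Ptprc to 6.08 for Cd68. The part of both lists in the results below was not tested. Lists for fibroblasts (4 of 6, 5.64 to 5.90 and 5.76 to 6.02) and endothelium (4 of 5, 4.37 to 4.40 and 4.33 to 4.44) overlapped between the groups, with control levels from -0.23 for Pdgfrb to 5.22 for Col1a1 and from 1.23 for Cdh5 to 3.33 for Pecam1. Pdgfrb was called higher (0.11, adjusted p = 0.00886), and the block added Col1a1 (0.13, adjusted p = 0.0281) and Kdr (0.13, adjusted p = 0.0411, limma for all 3).

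The 47 genes did not move as a block. With limma, 8 were higher in GRHL2 samples (17.0%, against 10.5% of all genes) and 6 were lower (12.8%, against 5.91%), so 29.8% were called in either direction, against 16.4% of all genes, while 33 did not pass the adjusted p threshold of 0.05. The 47 genes had a median control level of 10.02, above the 6.44 of all genes. Shares here and below were not matched for level. Among the genes that passed, the NRF2 targets Hmox1, Nqo1, Osgin1 and Srxn1, the ferritin heavy chain Fth1 and the transferase Gsta1 fell. The transferases Gsta3, Gstm2, Gstm6 and Gstt3, the NADPH enzymes G6pdx and Taldo1, the peroxidase Gpx2 and Keap1 rose. The median difference was 0.012, beside 0.0066 over all genes. Differences ran from -0.99 for Hmox1 to 0.70 for Gsta3. The 2 groups of samples did not overlap for 8 genes that were higher (17.0%, against 14.3% of all genes) and 7 that were lower (14.9%, against 9.47%). Across all genes, 63.9% of the genes called were higher, and 75.9% and 77% after scaling each sample to an equal upper quartile or an equal sum. Of the 14 genes called, 7 kept their call in all 19 other settings of the fit over both groups (Hmox1, Gsta3, Gstm2, G6pdx, Fth1, Gpx2 and Gstt3), and the other 7 lost it in at least 1 setting. Gpx2 and Gstt3 had low control means of 1.85 and 3.14, where the rlog acts most, and the size of their differences, 0.15 for each, cannot be judged.

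**Figure D1:**
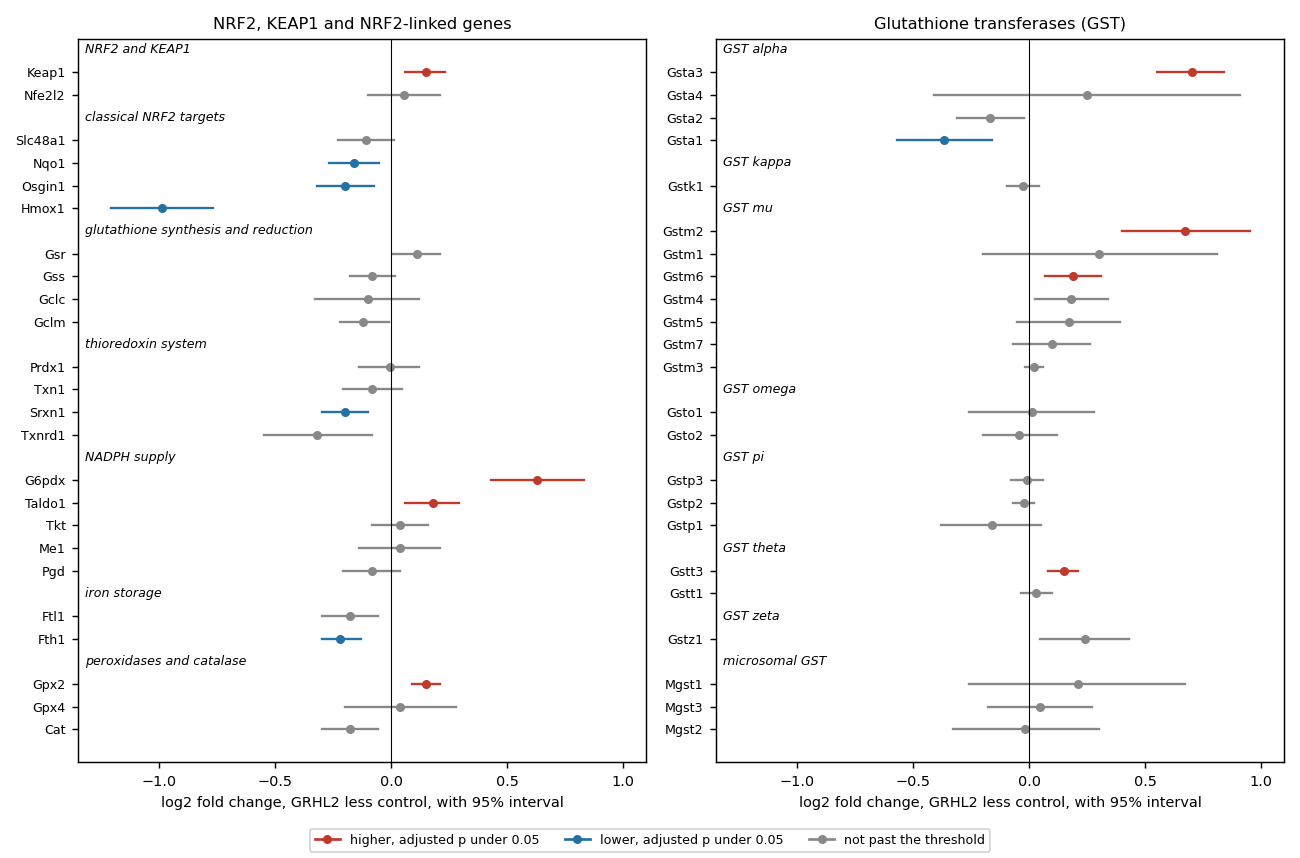
Difference in log2 level between GRHL2 and control samples for each of the 47 genes, grouped by role, with the 95% interval from limma. Red points are the 8 genes higher and blue points the 6 genes lower at an adjusted p under 0.05, and grey points did not pass. Hmox1 lies farthest to the left at -0.99 and Gsta3 farthest to the right at 0.70.

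Samples that share a replicate number departed from their group means in the same direction, so a fit with the replicate number as a block was also made. It called 15 of the 47 genes higher and 13 lower (31.9% and 27.7%, against 18.2% and 13.9% of all genes, and 59.6% in either direction against 32.1%). All 14 genes called without the block were among them. Values with the block are given below for each of the 47 genes to which it adds a call.

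Promoter sequences were searched because these genes are grouped by a shared binding element and GRHL2 is a DNA-binding factor. RefSeq windows on GRCm38.p6, from 250 bases before to 50 bases after a transcript start, matched 42 of the 47 genes. Gsta4, Hmox1, Slc48a1, Gclc and Gsr had none. The ARE core, searched as TGACNNNGC on both strands, was in a window of 12 of the 42 genes (28.6%, against 14.0% of 27025 genes with a window). Of these 12, Gsta3 and G6pdx were called higher and Srxn1 lower (25%), while 6 of the 30 genes with a window but no match were called higher and 4 lower (33.3%, against 16.4% of all genes). Txnrd1, Gclm, Nfe2l2, Gstm5, Gstm7, Mgst1, Prdx1, Pgd and Me1 made up the rest. The element overlaps the AP-1 site TGACTCA in the matches of Me1 and Prdx1. The following stretches, which are the matches of the genes called and of 3 core NRF2 genes, are shown in their transcript's direction with the ARE core in capitals and 10 bases on each side. They lie at chr1:21240454-21240482 (plus strand) for Gsta3, chrX:74428919-74428947 (minus) for G6pdx, chr2:152105542-152105570 (plus) for Srxn1, chr10:82859104-82859132 (plus) for Txnrd1, chr3:122245413-122245441 (plus) for Gclm and chr2:75704885-75704913 (minus) for Nfe2l2.
Gsta3: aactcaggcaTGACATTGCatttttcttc
G6pdx: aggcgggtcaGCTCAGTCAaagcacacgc
Srxn1: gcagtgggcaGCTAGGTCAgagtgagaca
Txnrd1: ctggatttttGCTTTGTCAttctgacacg
Gclm: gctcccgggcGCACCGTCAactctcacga
Nfe2l2: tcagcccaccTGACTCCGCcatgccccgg
In Gsta3 and Nfe2l2 the core reads along the transcript, whereas in the other 4 it reads on the opposite strand. The centred Grainyhead site AACCGGTT was in none of the 42 genes (0.174% of all genes), and a looser form, AACNNGTT, was in 5 (11.9%, against 4.77%): Gsta3, Gstp1, Gstp2, Mgst3 and G6pdx. The matches of Gstp1 and Gstp2, both of the pi class, lie in nearly the same letters and are not separate cases. That of G6pdx begins 28 bases after the start. A match is a description of the letters and does not show that a factor binds there.

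Gsta3, the gene with the largest increase, held both kinds of match. Its 250 bases before the start, chr1:21240335-21240584 on the plus strand, are shown with the looser Grainyhead form and then the ARE core in capitals.
Gsta3 upstream: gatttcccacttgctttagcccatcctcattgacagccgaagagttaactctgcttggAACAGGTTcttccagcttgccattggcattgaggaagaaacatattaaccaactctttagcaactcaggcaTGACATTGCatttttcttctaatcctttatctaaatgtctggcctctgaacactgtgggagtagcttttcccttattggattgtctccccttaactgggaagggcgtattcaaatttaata

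Levels per length spanned most of the range of the table. In control samples 24 of the 47 genes had a mean level of at least 10 and 8 were under 4, where the median of all genes was 6.44. The ferritin light and heavy chains Ftl1 (15.29) and Fth1 (15.27), which store iron, were highest, followed by the omega transferase Gsto1 (13.96) and the peroxiredoxin Prdx1 (13.90). Gstm3 (1.20), Gstk1 (1.32) and Gpx2 (1.85) were lowest. Within the GST classes the highest control levels were those of Gsta4 in alpha (10.86), Gstm1 in mu (10.29), Gstp1 in pi (11.93) and Mgst3 among the microsomal enzymes (10.02).

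The transcripts of NRF2 and KEAP1 moved little. These are RNA levels and do not measure NRF2 protein, and other regulators are given below with the other pathway genes. Nfe2l2, which encodes NRF2 (chr2:75675513-75704641), had levels of 11.23, 11.16, 11.30 and 11.27 in control and 11.25, 11.12, 11.44 and 11.37 in GRHL2 samples. The groups overlapped, and the difference of 0.054 had a 95% interval of -0.10 to 0.21 (adjusted p = 0.646, limma). It ran from 0.0050 to 0.11 when each sample was left out. Keap1 (chr9:21229730-21239361) had levels of 8.04, 8.08, 8.09 and 8.09 in control and 8.20, 8.24, 8.25 and 8.20 in GRHL2 samples. Every GRHL2 sample was above every control sample, and Keap1 rose by 0.15 (SE 0.040, adjusted p = 0.0332, limma). This call was lost after a correction for transcript GC content (0.098, adjusted p = 0.122) and without any single sample except control replicate 2 (adjusted p up to 0.0951). In addition, 4.58% of Keap1's sequence, in stretches of 100 bases, is shared with the antisense gene Gm16754, whose difference was 0.045.

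The list of classical NRF2 targets held only Hmox1, Nqo1, Osgin1 and Slc48a1. All 4 were lower in mean level, as were 8610 of the 18671 genes. The test called 3 of these 4 lower (75%, against 5.91% of all genes). Other NRF2-linked genes are grouped below by function, such as Txnrd1 and Gclm, which did not pass, and G6pdx, which rose. Over all 24 named genes, 4 were called higher and 5 lower (16.7% and 20.8%, against 10.5% and 5.91% of all genes). Hmox1 (chr8:75093621-75100589), the heme oxygenase that degrades heme and releases iron, had levels of 10.68, 10.74, 10.45 and 10.44 in control samples. In GRHL2 samples they were 9.74, 9.69, 9.36 and 9.55. The gap between the groups exceeded the spread within either, and Hmox1 fell by 0.99 on the log2 scale, to 0.503 of the control level (SE 0.097, adjusted p = 2.48e-04, limma). Hmox1 differed by -1.0 in replicates 1 and 2 and, with both groups at lower levels, by -0.99 in replicates 3 and 4.

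Osgin1 (chr8:119434124-119446256), an oxidative stress-induced growth inhibitor, had levels of 11.01, 10.91, 10.85 and 10.89 in control and 10.79, 10.61, 10.70 and 10.77 in GRHL2 samples. It fell by 0.20 (SE 0.054, adjusted p = 0.0342, limma), without overlap between the groups. Nqo1 (chr8:107388225-107403206), which reduces quinones, had levels of 5.27, 5.18, 5.11 and 5.24 in control and 5.07, 4.95, 5.11 and 5.01 in GRHL2 samples. The lowest control and the highest GRHL2 sample, both replicate 3, were equal after rounding. Nqo1 fell by 0.16 (SE 0.049, adjusted p = 0.0462, limma), and this call was lost in most other settings, with an adjusted p of 0.124 without control replicate 1 and 0.320 within replicates 3 and 4. Osgin1 lost its call without any of 6 samples (control replicates 1, 2 and 4 and GRHL2 replicates 2, 3 and 4), with an adjusted p of up to 0.0979. Slc48a1, a heme transporter, differed by -0.11 (adjusted p = 0.206, and 0.0393 with the replicate block, both limma).

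**Figure D2:**
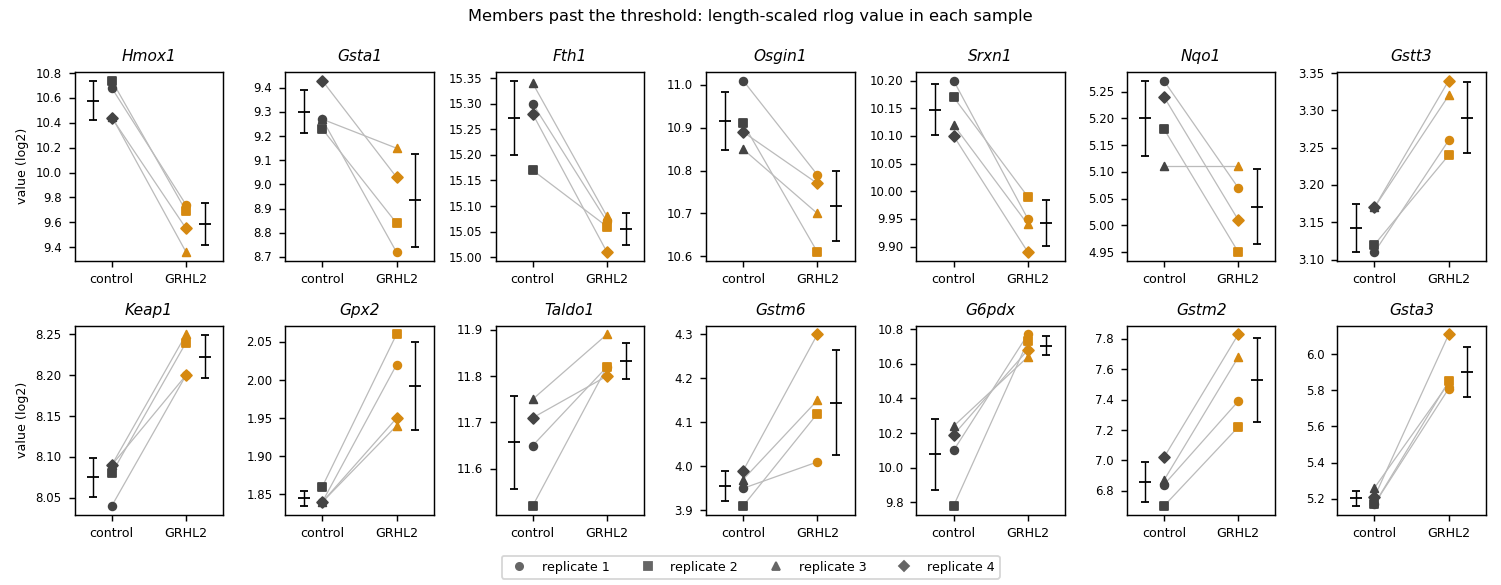
Log2 level of the 14 genes called with limma in each of the 8 samples, with lines joining samples of the same replicate number and bars giving the mean and SD of each group (n = 4). Each panel has its own vertical axis, which does not start at 0. The steepest panels span a difference of -0.99 for Hmox1 and 0.70 for Gsta3, and in the Nqo1 panel replicate 3 is level.

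None of the 4 genes of glutathione synthesis and reduction passed the test, beside 16.4% of all genes called in either direction. With only 4 genes this is no result about the group. Gclc and Gclm encode the catalytic and modifier subunits of the rate-limiting ligase of glutathione synthesis. Gclc had levels of 11.33, 11.22, 11.45 and 11.51 in control and 11.21, 11.01, 11.45 and 11.43 in GRHL2 samples, with a difference of -0.10 (95% interval -0.33 to 0.12, adjusted p = 0.533, limma, and -0.16 to -0.015 when each sample was left out). Gclm had levels of 10.89, 10.85, 10.79 and 10.76 in control and 10.77, 10.69, 10.73 and 10.63 in GRHL2 samples, with a difference of -0.12 (adjusted p = 0.130, limma). The groups overlapped for both genes, and with the replicate block Gclm was called lower (adjusted p = 0.0239) and Gclc was not (0.0686, both limma). Glutathione synthetase, Gss, was lower in every GRHL2 sample than in any control sample, with a difference of -0.083 that did not pass (adjusted p = 0.247, limma). Glutathione reductase, Gsr, which restores the reduced form with NADPH, differed by 0.11 (adjusted p = 0.136, and 0.0303 with the block, both limma).

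In the thioredoxin system all 4 genes had lower means in GRHL2 samples, as did 8610 of the 18671 genes. The test called 1 of the 4 lower, against 5.91% of all genes. After scaling each sample to an equal upper quartile or an equal sum, 3 of the 4 were lower. The same held after GC correction, with and without the replicate block. Srxn1 (chr2:152105516-152111376), the sulfiredoxin that repairs overoxidized peroxiredoxins, had levels of 10.20, 10.17, 10.12 and 10.10 in control and 9.95, 9.99, 9.94 and 9.89 in GRHL2 samples. The groups did not overlap, and it fell by 0.20 (SE 0.044, adjusted p = 0.0128, limma). Txnrd1 (chr10:82833951-82897712), the reductase that recycles thioredoxin, had levels of 12.26, 12.45, 12.03 and 12.05 in control and 11.98, 12.05, 11.77 and 11.72 in GRHL2 samples. Each GRHL2 sample was below the control sample of its own number, but the groups overlapped. The difference of -0.32 missed the threshold without the block and passed it with the block (adjusted p = 0.0673 and 2.64e-04, both limma). Thioredoxin itself, Txn1 (-0.085), and Prdx1 (-0.0073) did not pass in either fit.

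The enzymes that supply NADPH were divided. G6pdx (chrX:74409483-74429194), the first enzyme of the pentose phosphate pathway, had levels of 10.10, 9.78, 10.24 and 10.19 in control samples. In GRHL2 samples they were 10.77, 10.73, 10.64 and 10.68. The groups did not overlap, and G6pdx rose by 0.63, 1.55 times the control level (SE 0.090, adjusted p = 0.00162, limma). It lies within the span of Ikbkg on the opposite strand, with which it shares 7.34% of its sequence in stretches of 100 bases, and reads were counted without regard to strand. Ikbkg moved the other way, by -0.33 (adjusted p = 0.00596, limma). Taldo1 (chr7:141392199-141402968), a transaldolase of the same pathway, had levels of 11.65, 11.52, 11.75 and 11.71 in control and 11.82, 11.82, 11.89 and 11.80 in GRHL2 samples. It rose by 0.18 (SE 0.053, adjusted p = 0.0496, limma), close to the threshold, and lost its call without any single sample except control replicate 3 (adjusted p up to 0.123). The other enzymes Pgd (-0.085), Tkt (0.039) and Me1 (0.036) did not pass in either fit.

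Both ferritin chains were lower in mean level. Fth1 (chr19:9980598-9985098) had levels of 15.30, 15.17, 15.34 and 15.28 in control and 15.07, 15.06, 15.08 and 15.01 in GRHL2 samples. The groups did not overlap, and Fth1 fell by 0.22 (SE 0.038, adjusted p = 0.00451, limma). Ftl1 had levels of 15.34, 15.13, 15.36 and 15.32 in control and 15.11, 15.01, 15.15 and 15.16 in GRHL2 samples, with the second control sample within the range of the GRHL2 samples. Its difference of -0.18 fell just short of the threshold, and passed with the block (adjusted p = 0.0501 and 7.21e-04, both limma). As 44.7% of Ftl1's sequence, in stretches of 100 bases, also occurs in other genes, its reads could be split in counting, and its pseudogene Ftl1-ps1 differed by -0.16 (adjusted p = 0.290, limma).

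Of the peroxide-removing enzymes, Gpx2 (chr12:76792333-76795554), a glutathione peroxidase of epithelia, had the low levels of 1.84, 1.86, 1.84 and 1.84 in control and 2.02, 2.06, 1.94 and 1.95 in GRHL2 samples. It rose by 0.15 without overlap of the groups (SE 0.027, adjusted p = 0.00565, limma). Catalase, Cat, had levels of 11.03, 11.08, 10.99 and 11.09 in control and 10.84, 10.77, 10.86 and 11.00 in GRHL2 samples. GRHL2 replicate 4 reached into the control range, and the difference of -0.18 passed with the block (adjusted p = 0.0503 without and 0.0101 with it, both limma). Gpx4, which reduces lipid hydroperoxides, differed by 0.038 (adjusted p = 0.848, limma).

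Among the 23 GSTs, 4 rose and 1 fell (17.4% and 4.35%, against 10.5% and 5.91% of all genes), with a median difference of 0.045. Alpha class genes went in both directions. Gsta3 (chr1:21240589-21265661) had levels of 5.17, 5.17, 5.26 and 5.21 in control and 5.81, 5.85, 5.84 and 6.11 in GRHL2 samples. Control samples lay within a narrow band well below all GRHL2 samples, of which replicate 4 was the highest. Gsta3 rose by 0.70, 1.62 times the control level (SE 0.065, adjusted p = 1.97e-04, limma), and shares no stretch of 100 bases with another gene.

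Gsta1 (chr9:78230656-78242684) had levels of 9.27, 9.23, 9.27 and 9.43 in control and 8.72, 8.84, 9.15 and 9.03 in GRHL2 samples. It fell by 0.37, to 0.776 of the control level (SE 0.091, adjusted p = 0.0224, limma), without overlap of the groups. The call was lost without control replicate 1, control replicate 4 or GRHL2 replicate 2, with adjusted p = 0.0535, 0.0565 and 0.0508 (limma). The value is uncertain for a second reason, since 80.6% of the gene's sequence in stretches of 100 bases occurs in Gm3776, Gsta2 or Gm10639. Gsta2 differed by -0.17 (adjusted p = 0.103, and 0.0126 with the block, both limma), and Gm10639 by -0.021. Gsta4 (chr9:78182774-78209349), the most abundant of the class, had levels of 10.65, 10.31, 11.20 and 11.28 in control and 10.69, 10.52, 11.59 and 11.65 in GRHL2 samples. The spread between replicates was larger than the difference between groups of 0.25, which ran from 0.065 to 0.45 when each sample was left out. It missed the threshold without the block and passed it with the block (adjusted p = 0.615 and 0.0102), with a term for replicates 1 and 2 against 3 and 4 (0.0342) and within replicates 3 and 4 (0.38, adjusted p = 0.0445, all limma).

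The mu class lies in a cluster on chromosome 3, and all 7 genes had higher means in GRHL2 samples, also after each scaling and GC correction tried, where 10061 of the 18671 genes had higher means. Of these 7, 2 passed, and 5 with the block, against 10.5% and 18.2% of all genes. Gstm2 (chr3:107981702-107986453) had levels of 6.84, 6.70, 6.87 and 7.02 in control and 7.39, 7.22, 7.68 and 7.83 in GRHL2 samples. The groups did not overlap, and Gstm2 rose by 0.67, 1.60 times the control level (SE 0.12, adjusted p = 0.00565, limma). Gstm6 (chr3:107938847-107943749) had levels of 3.95, 3.91, 3.97 and 3.99 in control and 4.01, 4.12, 4.15 and 4.30 in GRHL2 samples. It rose by 0.19 (SE 0.056, adjusted p = 0.0433, limma), with a gap between the groups far smaller than for Gstm2, and lost its call without any single sample except GRHL2 replicate 1 (adjusted p up to 0.104). Gstm1 (chr3:108012255-108017973) had levels of 10.13, 9.81, 10.52 and 10.69 in control and 10.34, 10.14, 10.91 and 10.97 in GRHL2 samples. Each GRHL2 sample exceeded the control sample of its number while the groups overlapped, and the difference of 0.30, which ran from 0.14 to 0.45 when each sample was left out, passed with the block and with a term for replicates 1 and 2 against 3 and 4 (adjusted p = 0.406 without, 5.76e-04 with the block and 0.00995 with the term, all limma). Gstm4 (0.18) and Gstm5 (0.17) were not called without the block and were called with it (adjusted p = 0.0108 and 0.0456, limma), whereas Gstm7 (0.097) and Gstm3 (0.021) were not called in either fit.

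In the remaining classes Gstt3 was the 1 gene that passed with all samples and no block or further term. Gstt3 (chr10:75774115-75781414), of the theta class, had levels of 3.11, 3.12, 3.17 and 3.17 in control and 3.26, 3.24, 3.32 and 3.34 in GRHL2 samples, and rose by 0.15 (SE 0.030, adjusted p = 0.0106, limma). The groups did not overlap, and 10.8% of its sequence in stretches of 100 bases is shared with Gm20441. Gstz1, the zeta enzyme of tyrosine breakdown, had levels of 7.68, 7.55, 7.81 and 7.73 in control and 7.85, 7.74, 8.03 and 8.10 in GRHL2 samples. Its difference of 0.24 was called higher with the block and also without GRHL2 replicate 2 (adjusted p = 0.0860 for all samples, 0.00395 with the block and 0.0320 without that sample, all limma). Gstp1 (chr19:4035407-4037985) had levels of 11.91, 11.71, 12.00 and 12.10 in control and 11.68, 11.59, 11.92 and 11.88 in GRHL2 samples, a difference of -0.16 with overlapping groups (adjusted p = 0.281, and 0.00893 with the block, both limma). The difference of Gstp1 ran from -0.24 to -0.10 when each sample was left out. This gene shares 25.1% of its sequence in stretches of 100 bases with Gstp2. Mgst1 differed by 0.21 (adjusted p = 0.549, and 0.00670 with the block, both limma). Gsto1, Gstk1 and Mgst3 had differences of 0.012, -0.028 and 0.045, whose signs turned without single samples.

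Many transferases differed more between replicates than between groups. Replicates 3 and 4 together were above replicates 1 and 2 in 22 of the 23 GSTs, against 8163 of the 18671 genes. In 13 of the 23 GSTs (56.5%, against 44.2% of all genes) the replicate difference, in either direction, was larger than that between groups. It was largest for Gsta4, at 0.76 in control and 1.02 in GRHL2 samples. For Gstm1 it was 0.63 in control and 0.70 in GRHL2 samples, and for Mgst1 0.58 and 0.62. Both groups therefore moved together from one pair of replicates to the other. Over the 47 genes the replicate difference was the larger in 22 (46.8%, against 44.2% of all genes).

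**Figure D3:**
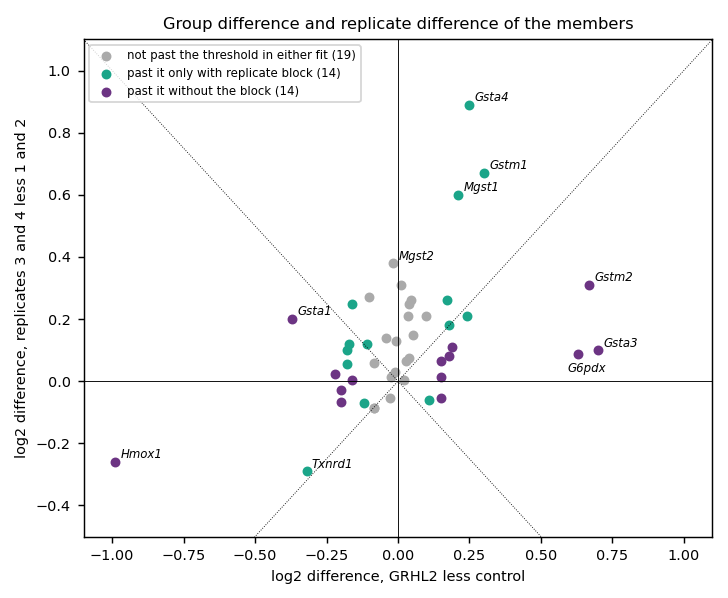
Each point is a gene of the 47, with the difference between GRHL2 and control on the horizontal axis and the difference between replicates 3 and 4 and replicates 1 and 2, over both groups, on the vertical axis (both log2). Dotted lines mark equal size. Gsta4, Gstm1 and Mgst1 lie high above them, at 0.89, 0.67 and 0.60 on the vertical axis, whereas Hmox1, Gsta3, Gstm2 and G6pdx lie far out on the horizontal axis.

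A list of 97 other genes of the same pathways was examined with the same fit, of which 96 are in the table. Of these 6 rose (6.25%) and 13 fell (13.5%), beside 10.5% and 5.91% of all genes. The median difference was -0.0049. With the block 17 were called higher and 19 lower (17.7% and 19.8%, against 18.2% and 13.9% of all genes).

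The 5 largest decreases among genes called without the block included transporters and regulators on either side of glutathione and thioredoxin. Txnip, which binds and inhibits thioredoxin, had levels of 10.44, 10.81, 10.33 and 10.28 in control and 9.56, 9.47, 9.44 and 9.61 in GRHL2 samples and fell by 0.95 (SE 0.11, adjusted p = 4.60e-04, limma). Slc7a11, the cystine importer that feeds glutathione synthesis, had levels of 7.59, 7.91, 7.60 and 7.62 in control and 6.94, 6.69, 7.07 and 7.02 in GRHL2 samples and fell by 0.75 (SE 0.097, adjusted p = 9.92e-04, limma). The groups were far apart for both genes. Sesn2, a sestrin of the stress response, fell by 0.49 (adjusted p = 0.00108), from 8.35 to 8.58 in control to 7.83 to 8.04 in GRHL2 samples. Sqstm1, the autophagy receptor p62 that binds KEAP1, fell by 0.42 (adjusted p = 8.76e-04), from 13.23 to 13.40 to 12.83 to 13.00, and the canalicular exporter Abcc2 fell by 0.41 (adjusted p = 0.0141, limma for all 3). No group overlapped for these 5 genes. Slc3a2, the partner chain of Slc7a11, also passed, with a difference of -0.34, as did Chac1 (-0.40), which degrades glutathione. Cul3, the ligase scaffold used by KEAP1, differed by -0.27. The remaining genes that fell were Selenow, Abcc4, Tsku, Mthfd2 and Esd, with differences from -0.30 to -0.15.

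The largest increase was that of Nfe2l3, an NRF2 relative, from levels of 6.35, 6.23, 6.32 and 6.21 to 6.87, 6.88, 6.78 and 6.77, a rise of 0.55 (SE 0.049, adjusted p = 1.81e-04, limma). The peroxiredoxin Prdx5 rose by 0.45 (adjusted p = 0.00249, limma), with levels of 10.74 to 11.07 in control and 11.31 to 11.43 in GRHL2 samples. Both genes kept their groups apart. Maff, a small MAF partner, rose by 0.41 (adjusted p = 0.0484), Trim16 by 0.28 (adjusted p = 0.0346) and Cbs, an enzyme of cysteine formation, by 0.24 (adjusted p = 0.00901, limma for all 3), and Gpx3 by 0.18. The other small MAF genes went the other way and were called with the block but not without it. Mafk had levels of 9.32, 9.60, 9.20 and 9.08 in control and 9.01, 9.16, 8.68 and 8.67 in GRHL2 samples, a difference of -0.42 with overlapping groups (adjusted p = 0.0637 without and 2.33e-04 with the block, both limma). Mafg differed by -0.14 (adjusted p = 0.120 and 0.0258, both limma). The calls of Maff and Trim16 were each lost without any one of 6 samples, all 4 control samples and GRHL2 replicates 1 and 2, with an adjusted p of up to 0.111 for Maff and 0.0903 for Trim16.

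**Figure D4:**
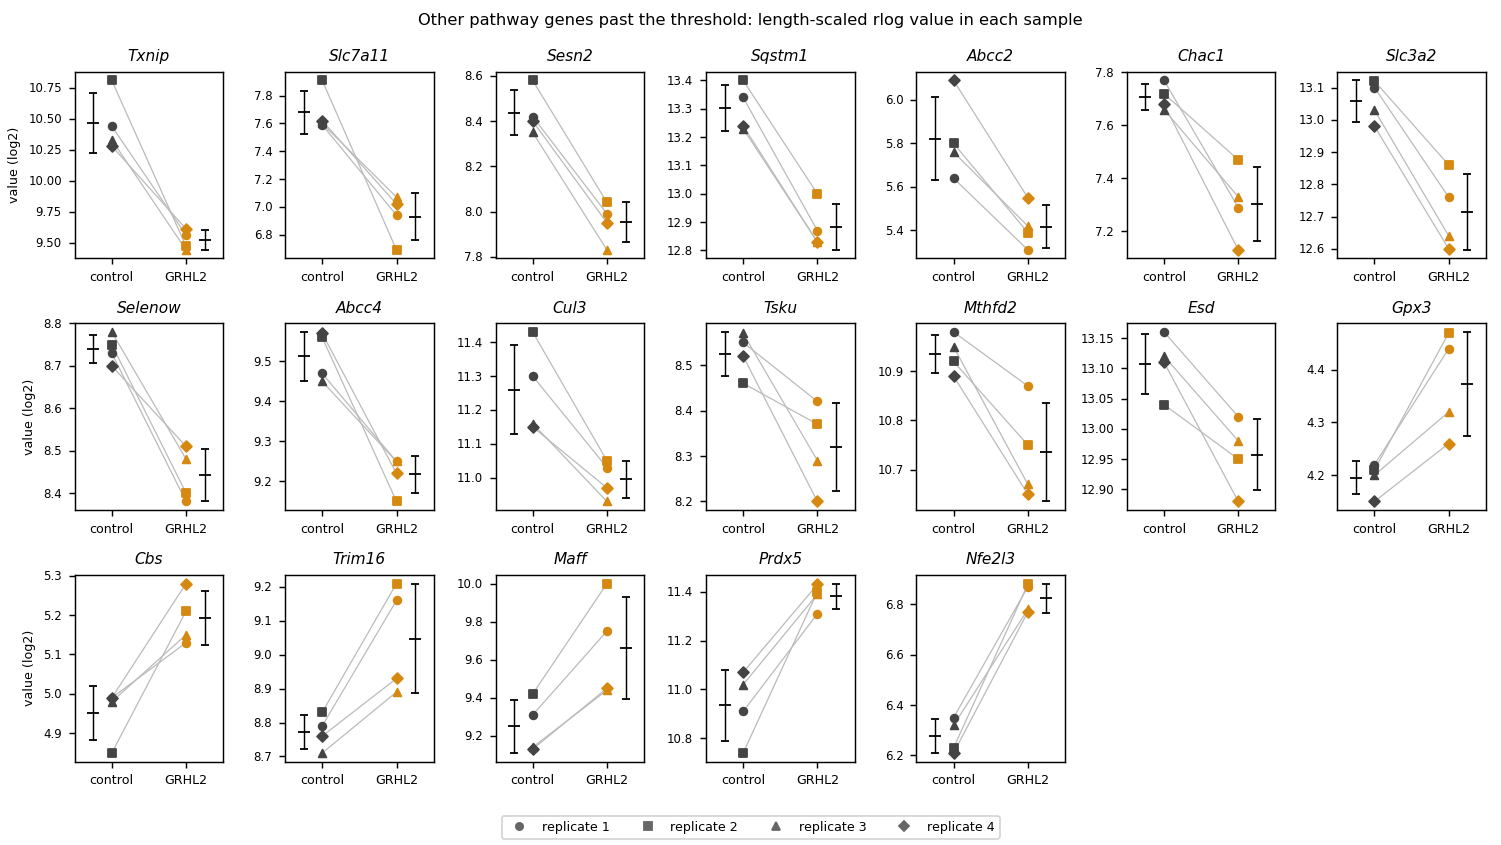
Log2 level in each of the 8 samples for the 19 other pathway genes called with limma, with lines joining samples of the same replicate number and bars giving the mean and SD of each group (n = 4). Each panel has its own vertical axis, which does not start at 0. The panels run from Txnip, with a difference of -0.95, to Nfe2l3, with 0.55.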

How the data were processed

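RNA-seq values of 8 BMEL samples (4 GRHL2, 4 control) were read from 1 table. The authors' methods name mapping to mm10, exon counts from HTSeq regardless of strand, the rlog of DESeq2 and a scaling to transcript length, for which the submitters' processing notes give HISAT2 2.2.1, HTSeq 0.9.1 and DESeq2 1.40.2. The deposited values are log2 values under an FPKM name, and that this description covers the BMEL samples is an assumption. Depth is unknown, and its precision was not estimated.

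All 18671 genes were tested with limma 3.58.1 in R 4.3.3 (2 groups, trended empirical Bayes, p-values adjusted by Benjamini-Hochberg, threshold 0.05) with no pseudocount and no filter, after tests on simulated data. The replicate numbers in the labels pair the samples: deviations of same-numbered samples from their group means had r = 0.474, 0.565, 0.549 and 0.645 across genes (mean of other pairs -0.183). As deviations cancel out within a group, the value for other pairs follows largely from those for same-numbered samples and is no separate evidence. The members, lists and rules were chosen with earlier results of these data known. Named were Grhl2, Nfe2l2, Keap1, Nqo1, Hmox1, Gclc, Gclm, Txnrd1, Srxn1, all called members, the highest member of each GST class and up to 5 other pathway genes per direction. Other genes were named after their values were seen. Positions are of GENCODE M21 (GRCm38), whose transcripts were compared in stretches of 100 bases. Alternatives were scaling, a mean value of at least 0, a pseudocount of 1, no trend, robust fit, replicate block, GC correction, replicate pairs and leaving out each sample.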

Additional observations from a re-analysis of the deposited data

Results flagged for a closer look

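In 72 groups of 4 samples, from 36 named genes, 3 held a sample far from the other 3, where about 1 group in 20 is picked by chance. Gsta3 was highest in GRHL2 replicate 4, at 6.11, with the nearest sample at 5.85. Slc7a11 was highest in control replicate 2, at 7.91, with the nearest at 7.62. Cbs was lowest in control replicate 2, at 4.85, with the nearest at 4.98.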

How the results depend on the processing

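The genes higher among the 47, 8 with all samples, numbered 15 with the replicate block, 14 with the block and GC correction, 14 with a term for replicates 1 and 2 against 3 and 4, 5 with GC correction, 5 with replicates 3 and 4 averaged and 5 to 6 when each sample was left out. Those lower, 6 with all samples, numbered 13 in each of the first 3 of these settings, 3 with replicates averaged and 3 to 6 with a sample left out. GC correction thus changed the split from 8 higher and 6 lower to 5 and 7. The other pathway genes numbered 17, 17 and 18 higher with the block, the block with GC correction and the term, 10 with an equal sum, 11 within replicates 1 and 2, 3 with replicates averaged and 3 to 7 with a sample left out. Those lower numbered 20 with the block and GC correction and 9 to 13 with a sample left out. Over all genes, 1957 higher and 1104 lower became 3396 and 2589 with the block, 3157 and 2751 with the block and GC correction, 3270 and 2478 with the term, and 1326 to 1848 and 690 to 1036 with a sample left out. There were 1269 higher within replicates 3 and 4, 521 lower with replicates averaged, 3064 higher and 972 lower with an equal upper quartile, and 2912 and 869 with an equal sum. An equal upper quartile and an equal sum moved the median difference of all genes from 0.00663 to 0.0291 and 0.0307. The cause of these changes was not tested.

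The replicate block ended no call among the 14 and added those given above with the values, for 14 genes of the 47. With GC correction Keap1 (also with the block, adjusted p = 0.0616), Nqo1, Gstm6, Taldo1 and Maff lost their call with limma. The differences of Nqo1, Gstm6 and Taldo1 were then -0.15, 0.18 and 0.16, beside -0.16, 0.19 and 0.18 without the correction. That of Keap1 was 0.098, beside 0.15. Averaging replicates 3 and 4, which leaves fewer samples, ended the calls of Srxn1 (adjusted p = 0.0564, limma), Keap1, Nqo1, Gstm6, Osgin1, Taldo1, Maff and Trim16. Among differences that had not passed, the sign turned for Nfe2l2 (-0.013) and Gsto1 (-0.012) within replicates 1 and 2, and for Gstk1 (0.0068) and Mgst3 (-0.0010) within replicates 3 and 4. With a sample left out, Gstk1 ran from -0.043 to 0.0066, Gsto1 from -0.094 to 0.095 and Mgst3 from -0.045 to 0.11. As the rlog shrinks genes with few reads and the depth is unknown, the small differences of genes such as Gpx2, Gstk1, Gstm3, Gstp2 and Gstt3 cannot be judged.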
